A study of Mus musculus with 2 samples.

Results

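Macrophages and microglia were examined in the eye cups of newborn mice (P0) by single-cell RNA sequencing. A barcode, the tag of 1 droplet, was taken as a member if it held at least 3 transcripts of the complement genes C1qa, C1qb and C1qc together and at least 1 transcript of Ptprc, Tyrobp, Cx3cr1 or Csf1r. It also had to hold none of the endothelial transcripts Pecam1 and Cdh5, and less than 0.2% of its transcripts could come from the collagen gene Col3a1. Transcripts were counted as unique molecular identifiers (UMIs), so that copies of 1 captured molecule count once. The rule found 228 members among 26158 kept barcodes, 166 in the control library and 62 in the mutant library.

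The control library was a pool of 3 eye cups of the genotype Myrf fl/fl, and the mutant library a pool of 3 of the genotype Rx>cre Myrf fl/fl. Both genotypes carry the floxed Myrf allele, in which sites for the cre recombinase flank part of the gene, and cre itself is present in the mutant alone. Rx>cre is active in the early eye field, which gives rise to the neural retina and the retinal pigment epithelium (RPE), whereas macrophages and microglia arise from blood-forming tissue and enter the eye from outside. The tissue was dissociated with papain after removal of the cornea, the lens and the optic nerve. With 1 library per genotype there was no replicate check and no test, and every interval below covers counting error alone.

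Macrophages engulf dying cells and debris, and microglia are the resident macrophages of the brain and the retina. Both depend on the receptor Csf1r and on the transcription factor PU.1, the product of Spi1, and both make much of the C1q protein of the body, whose A, B and C chains assemble into the molecule that starts the classical complement cascade. Microglia are known for P2ry12, Siglech, Tmem119 and Sall1. Macrophages at the borders of the nervous system and in connective tissue, including the choroid and the vessels of the developing eye, are known for Mrc1, Lyve1, Cd163, F13a1 and Pf4.

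The library-wide values that bear on the members were as follows. After barcodes with fewer than 200 genes or over 15% mitochondrial UMIs were left out, the control library kept 14131 barcodes and the mutant 12027, with medians of 4231 and 4990 UMIs. Members were deeper than that in the mutant, with a median of 8548 UMIs and a range of 547 to 26943, against 4806.5 and 501 to 31608 in the control. Member UMIs summed to 1373582 in the control and 628808 in the mutant, so that 1 UMI was worth 0.728 and 1.59 CPM, the unit that scales member UMIs to the same total in both libraries. Barcodes with Xist and no Y-linked UMI made up 7.30% of the control and 69.8% of the mutant, so the pools differed in their mix of sexes, and sex and genotype cannot be told apart. The libraries shared 59 barcode sequences, of which 0 belonged to a member. Myrf itself checks the labels, at 11.3 CPM in control and 1.71 CPM in mutant barcodes that were not members. Among the members, all 6 Myrf UMIs lay in 1 control barcode, and 0 were found in the 62 mutant members, where 0 UMIs allow up to 4.77 CPM.

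Stretches upstream of 4 genes are shown because these genes mark the members as a whole (C1qc, C1qb) or the groups within them (Pf4, Siglech), and because macrophage promoters are known for the purine-rich sites that PU.1 binds. The windows run from 250 bases before the RefSeq start site (GRCm38.p6), 5′ to 3′ on the gene's strand, cut to the stretch that holds no UTR base. They lie at chr5:90772185-90772434 on the plus strand for Pf4, chr4:136893066-136893164 on the minus strand for C1qc, chr4:136886201-136886450 on the minus strand for C1qb and chr7:55767934-55768177 on the plus strand for Siglech. Capitals mark the motif GAGGAAGT in its reverse form ACTTCCTC where the full motif is there, and otherwise the inner core GGAAGT in its reverse form ACTTCC.
Pf4: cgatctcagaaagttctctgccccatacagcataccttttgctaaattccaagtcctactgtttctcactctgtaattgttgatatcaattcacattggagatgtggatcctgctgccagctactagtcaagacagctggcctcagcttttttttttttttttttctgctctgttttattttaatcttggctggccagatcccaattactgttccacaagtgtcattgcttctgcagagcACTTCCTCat
C1qc: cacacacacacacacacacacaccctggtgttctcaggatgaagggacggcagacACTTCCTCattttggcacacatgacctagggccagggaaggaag
C1qb: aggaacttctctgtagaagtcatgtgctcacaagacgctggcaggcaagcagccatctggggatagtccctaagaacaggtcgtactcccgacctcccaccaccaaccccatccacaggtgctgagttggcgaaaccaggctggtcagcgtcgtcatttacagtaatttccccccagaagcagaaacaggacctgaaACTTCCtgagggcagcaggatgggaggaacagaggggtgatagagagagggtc
Siglech: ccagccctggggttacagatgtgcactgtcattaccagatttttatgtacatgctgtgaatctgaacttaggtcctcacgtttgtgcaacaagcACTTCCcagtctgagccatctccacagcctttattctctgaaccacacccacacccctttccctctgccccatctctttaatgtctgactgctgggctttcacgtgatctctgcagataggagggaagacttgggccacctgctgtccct
Of 19 marker genes looked up on both strands, 12 had a window in the table, and the full motif was found in 2 of them, Pf4 and C1qc. It was found in 2.44% of all 32851 windows, and the core in 19.7%, so the core in C1qb and Siglech is a common match. A match describes the letters of the window and was not tested as a binding site.

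The genes of the rule are given first, as a description, since the rule fixed their presence. The 3 C1q genes lie side by side on chromosome 4 of GRCm38, C1qb at 136880129 to 136886187, C1qc at 136889804 to 136893065 and C1qa at 136895917 to 136898803. All 3 chains were found in 156 of 166 control members (94.0%) and in 60 of 62 mutant members (96.8%). The chains kept much the same proportions in both libraries, with C1qa at 33.7% and 34.6% of the C1q UMIs, C1qb at 38.2% and 37.6%, and C1qc at 28.1% and 27.7%. Tyrobp, an adaptor that passes on signals from immune receptors, was found in 151 and 60 members, Csf1r in 117 and 50, the fractalkine receptor Cx3cr1 in 91 and 40, and Ptprc, the pan-leukocyte phosphatase CD45, in 62 and 33. The check of the members rests on genes outside the rule. Of 12 pan-macrophage genes, 11 had a mean of at least 100 CPM. Their sum was 10324 CPM in control and 10130 CPM in mutant members.

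Genes that stood far above the other barcodes of the same library, named here by their order in the control, belonged to macrophages too, which is a description, since the members were chosen on C1q. The chemokine Ccl12 was 963-fold higher in control members than in the other control barcodes and 822-fold higher in the mutant. The ratios were 471 and 726 for the ficolin gene Fcna, 385 and 725 for the complement receptor C3ar1, 329 and 599 for the scavenger receptor Msr1, and 298 and 658 for Pf4, the chemokine platelet factor 4. The most abundant transcript was Tmsb4x, which encodes an actin-binding peptide, at 27444 CPM in control and 26084 CPM in mutant members.

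Markers of neutrophils, T and NK cells, dendritic cells and mast cells were at or near 0. Of the 8 neutrophil genes, 7 were at 0 in the control and 6 in the mutant. Of the 8 T and NK cell genes, 7 and 8 were at 0, and of the 8 dendritic cell genes 5 and 6, with sums of at most 39.3 CPM. The mast cell list summed to 5.10 and 4.77 CPM, with 3 and 6 of its 7 genes at 0. Of the 8 B cell genes 6 were at 0 in either library, and their sums of 88.8 and 70.0 CPM were mostly Cd79b (96 and 39 UMIs). The monocyte list summed to 2188 CPM in control and 1633 CPM in mutant members, nearly all of it lysozyme (Lyz2), which macrophages also make. Of the other monocyte genes, Ly6c2 gave 4 and 0 UMIs and the chemokine receptor Ccr2 20 and 6. Of the Ccr2 UMIs, 1 control member held 11 and 1 mutant member all 6. Chil3 was at 0 in both libraries, and Plac8, which differed by library, is given with the classes below.

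C1q varied widely from member to member. It ranged from 3 to 588 UMIs with a median of 40.5 in the control, and from 4 to 439 with a median of 150 in the mutant. Barcodes just inside the limit, with 3 or 4 C1q UMIs, numbered 9 and 1. Those just outside, with 1 or 2 C1q UMIs and the other conditions met, numbered 28 and 6. The barcodes just outside held on average 2.71 control and 3.00 mutant Pf4 UMIs, and those just inside held 3.11 and 9. At the far end, 70 control and 36 mutant members held at least 100 C1q UMIs, with medians of 14188 and 12183 UMIs in all.

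Free transcripts in droplets can give C1q UMIs to barcodes of other cells, and their level gives the background. Among barcodes with at least 3 UMIs of retinal progenitor genes, which should not make C1q, 2.40% in the control and 1.61% in the mutant held at least 1 C1q UMI, at median depths of 4441 and 5039 UMIs. With at least 3 C1q UMIs, as the rule asks, the shares were 0.188% and 0.061%. Members had been left out of these barcodes, and 42 control and 21 mutant members also held at least 3 progenitor UMIs. The shares therefore miss progenitor-gene barcodes that passed the rule and are not the full background. In barcodes with at least 0.2% Col3a1, the share with at least 3 C1q UMIs was 0.946% in the control and 0.291% in the mutant. In barcodes with at least 2 endothelial UMIs it was 0.269% and 0.515%, which is 1 barcode in each library. The rule bars both groups from being members, so no member was left out of them and their shares cannot be set against the progenitor shares. Over all kept barcodes that were not members, the share was 0.415% and 0.109%.

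**Figure D1:**
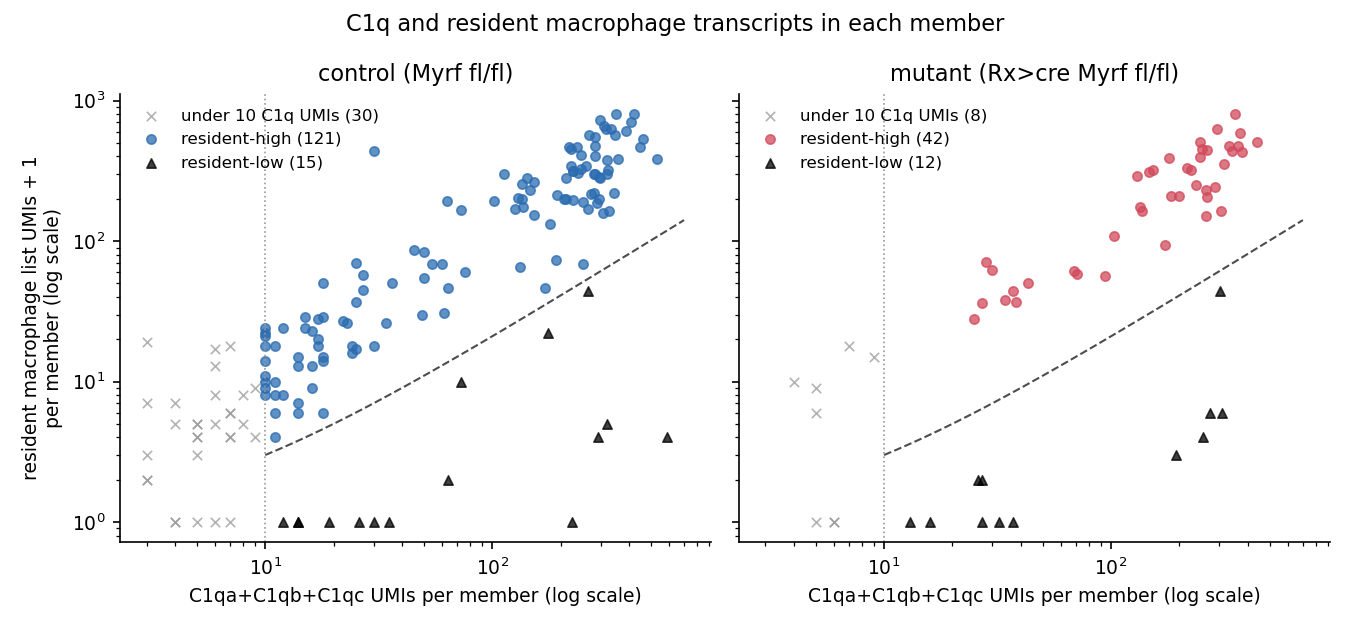
Each point is 1 member, with its C1q UMIs on the x axis and its UMIs of the 12 resident macrophage genes plus 1 on the y axis. Both axes are on log scales, and each library has its own panel. Circles are resident-high members, blue in the control and red in the mutant, black triangles are resident-low members, and grey crosses are members under 10 C1q UMIs. The dotted line is the 10 C1q UMIs from which members were classed and the dashed line is the ratio of 0.2 between the classes. Most members form a band above the dashed line, while 20 control and 15 mutant members had a ratio under 0.2, 15 and 12 of them with at least 10 C1q UMIs.

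Members took up 1.17% of the kept barcodes in the control (166 of 14131, 95% Clopper-Pearson interval 1.00 to 1.37) and 0.516% in the mutant (62 of 12027, 0.395 to 0.660). The mutant share was thus 2.28-fold lower (1.69 to 3.1). With at least 10 C1q UMIs asked for, 136 barcodes (0.962%) and 54 barcodes (0.449%) remained, and the log2 ratio moved from −1.19 (−1.63 to −0.76) to −1.10 (−1.58 to −0.64). After thinning to 1000 UMIs, which set depth equal and left out shallower barcodes (13056 and 11658 remained), the shares were 0.957% (125 members) and 0.472% (55 members).

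The ratio depended on what the members were counted against. Barcodes with retinal progenitor genes filled 71.4% of the control and 81.7% of the mutant library, whereas barcodes with at least 2 endothelial UMIs were fewer in the mutant, at 1.61% against 2.63%, and so were barcodes with at least 0.2% Col3a1, a mesenchyme gene, at 8.58% against 16.5%. Per 100 endothelial-gene barcodes there were 44.6 control and 32 mutant members, a log2 ratio of −0.48 whose interval reached past 0 (−1.0 to 0.02). Per 100 mesenchyme-gene barcodes there were 7.14 and 6.01 members, a log2 ratio of −0.25 (−0.71 to 0.20). Per 100 progenitor-gene barcodes there were 1.64 and 0.631, a log2 ratio of −1.38 (−1.83 to −0.95). How much of each tissue layer entered the dissociation cannot be told apart from the number of members in the eye.

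The share was also taken within barcodes of 1 kind of sex-linked transcript, into which 43.4% of control and 27.4% of mutant members did not fall because they held neither. Among barcodes with Xist and no Y-linked UMI, members made up 1.94% in the control (20 of 1031) and 0.393% in the mutant (33 of 8392), a log2 ratio of −2.30 (−3.15 to −1.42). Among barcodes with a Y-linked UMI and no Xist, they made up 0.995% (71 of 7134) and 0.615% (10 of 1625), a log2 ratio of −0.69 whose interval included 0 (−1.81 to 0.27). The 2 intervals overlap, and the difference between them was not tested.

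**Figure D2:**
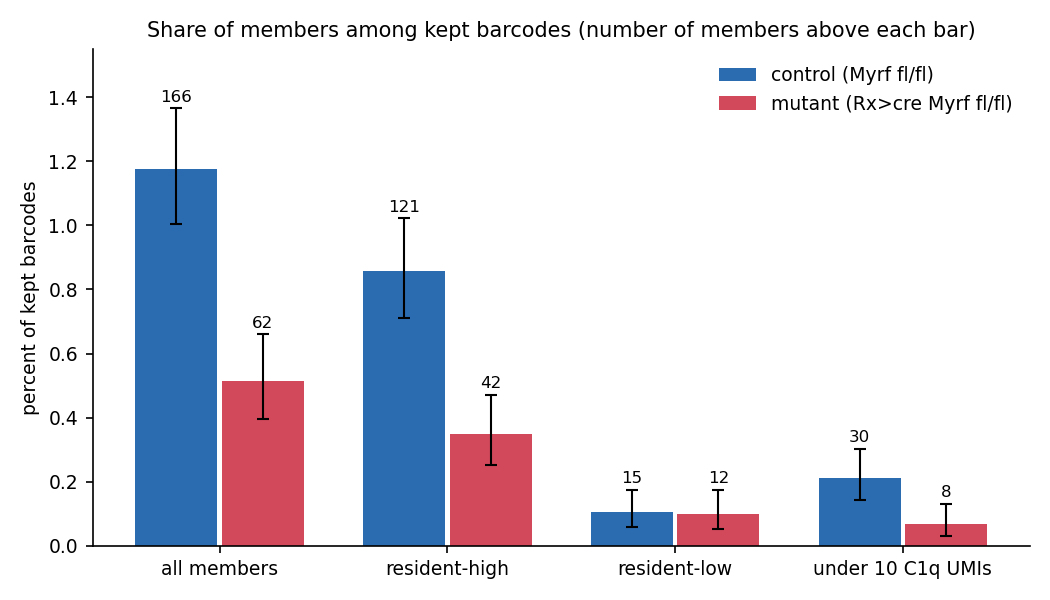
Bars give the percent of all kept barcodes that were members, resident-high, resident-low and members under 10 C1q UMIs. Error bars are 95% Clopper-Pearson intervals, and the number of barcodes stands above each bar. The bars for all members stand at 1.17% (control) and 0.516% (mutant), and those of the resident-low class at 0.106% and 0.0998%.

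Members were then divided by the border and tissue macrophage genes. For each member with at least 10 C1q UMIs, the UMIs of 12 resident macrophage genes (Mrc1, Cd163, Lyve1, F13a1, Pf4, Folr2, Ms4a7, Cbr2, Stab1, Timd4, Clec10a and Cd209f) were divided by its C1q UMIs. Members under a ratio of 0.2 were called resident-low and the others resident-high, with a limit set after the values were seen. There were 15 control and 12 mutant resident-low members, and 121 and 42 resident-high members. Within 2-fold of the limit lay 9 and 1 members, so the classes are ranges of 1 score. The median ratio was 0 and 0.0111 in resident-low members and 1.16 and 1.17 in resident-high members. A further 30 control and 8 mutant members had fewer than 10 C1q UMIs and were not classed.

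Resident-low members held the microglia genes, which the limit did not use. Siglech, a sialic acid receptor whose upstream stretch is shown above, gave 35 UMIs (261 CPM) in control and 21 UMIs (209 CPM) in mutant resident-low members, against 8 UMIs (6.81 CPM) and 0 UMIs in resident-high members. In the control this was 38.3-fold in CPM, and on the log2 scale, where 1 CPM is added to each gene level here and below, 5.07 (4.12 to 6.58), and in the mutant at least 34.8-fold against the limit of 3 counts that 0 allows. It was found in 8 of 15 and 4 of 12 resident-low members and in 6 of 121 and 0 of 42 resident-high members, so many resident-low members held none. Of the 20 control UMIs of the monocyte gene Ccr2, 17 lay in 3 of the 15 resident-low members, 11 of them in 1, with 0 UMIs in mutant resident-low members. Plac8, of the monocyte list too, gave 12 UMIs in control and 1 in mutant resident-low members, and 41 and 1 in resident-high members. Its log2 ratios of mutant over control were −3.05 (−8.59 to −0.41) and −3.58 (−9.46 to −1.56). Olfml3, a secreted protein of microglia, had the pattern of Siglech, at 253 and 219 CPM against 6.81 and 0. Sparc, a matrix-binding protein, stood at 1072 and 1114 CPM against 160.04 and 32, 6.70-fold and 34.8-fold, and fibroblasts, whose transcripts were more frequent in control members, make it too (their part was not tested).

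Other proteins of the microglial surface followed the same order. Tmem119, a membrane protein of unclear function, stood at 201 and 159 CPM in resident-low against 23.0 and 6.01 CPM in resident-high members, and the receptor Gpr34 at 424 and 378 against 73.2 and 44.0. P2ry12, the ADP receptor that directs microglial processes, stood at 410 and 328 CPM against 62.1 and 74.1, a log2 ratio in the control of 2.70 (2.19 to 3.25). By members with a UMI, P2ry12 overlapped more, with 6 of 15 and 8 of 12 resident-low members and 40 of 121 and 18 of 42 resident-high members. Sall1, a transcription factor of microglia, gave 7 and 1 UMIs in resident-low and 0 in resident-high members.

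Some microglia genes were shared by both classes. Fcrls was at 1117 and 1164 CPM in resident-low and at 719 and 821 CPM in resident-high members. Crybb1, best known as a lens crystallin and also made by immature microglia, was at 365 and 388 CPM against 194 and 104. Cx3cr1 was about 2.30-fold higher in control resident-low members, at 1169 against 508 CPM, with 925 against 360 CPM in the mutant. The phagocytic receptor Trem2, at 1273 against 379 CPM in the control and 845 against 222 CPM in the mutant, and the lysosomal protease cathepsin D (Ctsd), at 4393 against 914 and 2854 against 705 CPM, were on the same side.

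Resident-high members were set apart by the genes of the limit, which are given as a description. Pf4 was at 13498 CPM in control and 15553 CPM in mutant resident-high members, against 96.8 and 89.5 CPM in resident-low members. The mannose receptor Mrc1 (CD206) was at 1669 and 1734 CPM against 119 and 179, and the hyaluronan receptor Lyve1 at 970 and 905 CPM against 7.45 and 0. Cd163, the scavenger receptor for haemoglobin, was at 356 and 508 CPM, with 0 UMIs in resident-low members of either library.

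Of the genes outside the limit, some differed between the classes in the same direction in both libraries and others turned. Hmox1, haem oxygenase, stood at 1557 and 1542 CPM in resident-high and at 96.8 and 59.7 CPM in resident-low members, and the biliverdin reductase gene Blvrb at 656 and 647 against 156 and 119. The chemokine Ccl7 stood at 442 and 456 CPM in resident-high members, with 0 UMIs in resident-low members. Against the limit of 3 counts that 0 allows, it was at least 19.8-fold higher in the control and at least 15.3-fold higher in the mutant. Ccl4 went the other way, at 737 and 278 CPM in resident-low against 84.3 and 24.0 in resident-high members, though 23 of the 28 UMIs in mutant resident-low members lay in 1 of them. Wfdc17, a small secreted protein, was higher in resident-low members in the control, at 156 against 75.8 CPM, a log2 ratio of 1.04 (0.28 to 1.74), and lower in the mutant, at 49.7 against 198 CPM, −1.97 (−3.65 to −0.72). Lgals3, or galectin-3, turned in the same way (0.77 and −2.03), and so did the transcription factor Klf2 (0.75 and −1.74), and mutant resident-low members held 5, 5 and 11 UMIs of these 3 genes. For Wfdc17, 70 of the 99 UMIs in mutant resident-high members lay in 1 of them. Apoe, the main carrier of lipid, differed little, at 14342 and 15415 against 19488 and 18038 CPM.

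**Figure D3:**
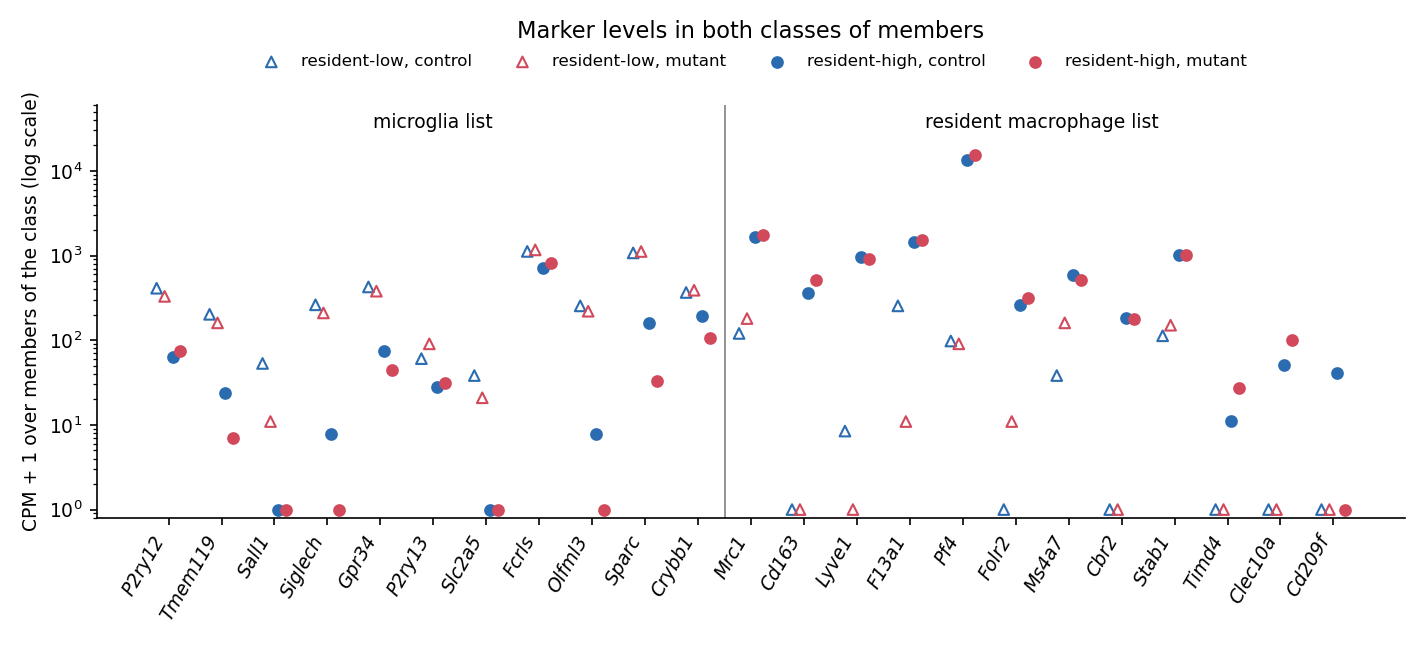
The y axis gives CPM plus 1 on a log scale for 11 microglia genes and 12 resident macrophage genes on the x axis, with triangles for resident-low and circles for resident-high members, control in blue and mutant in red. Sparc is at 1072 and 1114 CPM in the triangles and at 160.04 and 32 CPM in the circles, while Pf4 is at 96.8 and 89.5 CPM in the triangles and at 13498 and 15553 CPM in the circles.

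The resident-high class was less frequent in the mutant. It made up 0.856% of control and 0.349% of mutant barcodes, 2.45-fold lower (1.71 to 3.57) in the mutant. The resident-low class made up 0.106% and 0.0998%, a log2 ratio of −0.09 with the wide interval of −1.32 to 1.11 that 15 and 12 members give. Among members with at least 10 C1q UMIs, 11% (6.31 to 17.5) in the control and 22.2% (12 to 35.6) in the mutant were resident-low, a log2 odds ratio of 1.20 whose interval included 0 (−0.15 to 2.52). A difference between the classes was therefore not detectable at these numbers.

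Depth moved with this result. Of the 121 control resident-high members, 37 (30.6%) had fewer than 25 C1q UMIs and a median of 2025 UMIs, against 0 of the 42 in the mutant. The limit of 25 equals the lowest C1q count among mutant resident-high members, so it could remove control resident-high members alone. With at least 25 C1q UMIs asked for, 84 control and 42 mutant resident-high members remained, 0.594% and 0.349% of barcodes, and the log2 ratio of the share of resident-high members shrank from −1.29 (−1.84 to −0.78) to −0.77 (−1.34 to −0.22). The part of depth in the rest was not tested. Per 100 endothelial-gene barcodes there were 32.5 control and 21.6 mutant resident-high members, a log2 ratio of −0.59 (−1.19 to −0.003), and 4.03 and 6.19 resident-low members. For resident-high members per 100 mesenchyme-gene barcodes the log2 ratio was −0.35 (−0.91 to 0.18), and among barcodes with a Y-linked UMI and no Xist it was −0.70 (−2.09 to 0.45), and both intervals included 0.

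The expression of the members was then compared between genotypes, over the 1429 genes with a mean of at least 100 CPM in members. CPM were computed from UMIs summed over all members of a library. Each ratio sets the mutant over the control after 1 CPM was added to both. Most genes lay close together, with a median log2 ratio of 0.01, 5th and 95th percentiles of −0.36 and 0.42, and 99.1% of genes within 2-fold. A gene was counted as 2-fold apart if its counting interval also lay apart from 0. This held for 8 genes higher in the mutant (0.56% of those tested) and for 5 lower (0.35%). Intervals lay apart from 0 with no limit on size for 159 genes higher (11.1%) and 119 lower (8.33%), which is the background for the counts within the lists below.

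Of the 8 genes higher in the mutant, Xist is made from the inactive X chromosome of females, which the pools held in different numbers, and the retinal progenitor genes Hes5, Fabp7 and Nnat, the linker histone H1fx and the globin Hbb-bs are not known as macrophage genes. The remaining pair were Rgs1 and Wfdc17. Rgs1, a regulator of chemokine receptor signalling on chromosome 1 at 144242296 to 144249242, gave 114 UMIs (83.0 CPM) in control and 124 UMIs (197 CPM) in mutant members, a log2 ratio of 1.24 (0.87 to 1.63). It was found in 28 of 166 and 13 of 62 members, and the ratio was 1.12 without the barcodes that held most of it. With at most 2000 UMIs per barcode, which left 43 control and 6 mutant members, the log2 ratio of Rgs1 turned below 0. Wfdc17 gave 110 and 104 UMIs (80.1 and 165 CPM), but 70 of the 104 lay in 1 mutant barcode, and without it the log2 ratio turned from 1.04 to −0.36.

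The 5 genes lower in the mutant were the collagens Col1a1 and Col1a2, the pigment gene Pmel, S100a11 and Ccl4. Ccl4, a chemokine that draws monocytes and lymphocytes, lies on chromosome 11 at 83662584 to 83664683. It gave 198 UMIs (144 CPM) in control and 40 UMIs (63.6 CPM) in mutant members, a log2 ratio of −1.17 (−1.71 to −0.68). It was found in 20 control and 12 mutant members, and the highest of them held 64 and 23 of these UMIs. Without these barcodes the log2 ratio was −1.81, and after thinning to 1000 UMIs it was 0.11. Within the classes it was lower in the mutant in both, by −1.40 in resident-low and −1.77 in resident-high members. S100a11, a calcium-binding protein of many cell types, was at 215 and 48 UMIs, a log2 ratio of −1.03.

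The C1q and immune genes that the rule asked for differed little, whereas Col3a1, which the rule limited, was lower in the mutant. Col3a1 gave 202 UMIs (147 CPM) in control and 9 UMIs (14.3 CPM) in mutant members, a log2 ratio of −3.27 (−4.51 to −2.41). C1qa was at 4995 and 5417 CPM, a log2 ratio of 0.12 (0.06 to 0.18), C1qb at 5676 and 5887 CPM (0.05), and C1qc at 4172 and 4342 CPM (0.06). Csf1r was at 844 and 934 CPM (0.15) and Tyrobp at 2443 and 2320 CPM (−0.07). Cx3cr1 was lower in the mutant, at 437 against 554 CPM, a log2 ratio of −0.34 (−0.55 to −0.14).

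Of the 11 pan-macrophage genes tested, 4 had intervals above 0 and 4 below, with a median log2 ratio of 0.08. Laptm5, a lysosomal membrane protein, was at 720 and 864 CPM (0.26), and the Fc receptor chain Fcer1g at 3154 and 3384 CPM (0.10). Lyz2 was at 2122 and 1617 CPM, a log2 ratio of −0.39 (−0.50 to −0.29). Among the 9 transcription factors tested, 0 were higher and 3 lower by their intervals. Spi1 was at 409 and 318 CPM, a log2 ratio of −0.36 (−0.60 to −0.13). Maf, a factor of macrophage differentiation, was at 945 and 1016 CPM (0.10).

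The microglia list summed to 1938 and 2115 CPM, a log2 ratio of 0.13 (0.03 to 0.22). Without the member that held most of it in each library the sums were 1733 and 1782 CPM, and without Scrublet doublets (called droplets of more than 1 cell) the ratio of the microglia list CPM in members was −0.061. Within the classes the list gave 7372 and 7339.6 CPM in resident-low members, a log2 ratio of −0.006 (−0.15 to 0.13). In resident-high members it gave 1376 and 1159 CPM, −0.25 (−0.39 to −0.11). Of the 2 list genes tested there, Fcrls was higher at 0.19 (0.02 to 0.36) and Crybb1 lower at −0.89 (−1.36 to −0.46). Sparc, below the level tested there, was at −2.29 (−3.16 to −1.58). Over all members, 2 of the 5 tested genes of the list were higher and 1 lower by their intervals, with a median of 0.21. Fcrls was at 727 and 840 CPM (0.21), while Crybb1 was at 214 and 145 CPM, −0.56 (−0.92 to −0.22). Resident-low members made up 22.2% of the classed mutant and 11% of the classed control members. Crybb1 in barcodes that were not members moved the same way, at 92.5 CPM in control and 0.85 CPM in mutant cells, and its part in the ratio was not tested.

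The resident macrophage list CPM in members summed to 17327 and 17944, a log2 ratio of 0.05 (0.02 to 0.08) that turned to −0.013 when libraries were scaled by TMM factors, with 2 of 9 tested genes higher, 2 lower and a median of −0.05. Pf4, on chromosome 5 at 90772435 to 90773383, was at 11627 and 12419 CPM (0.10). Mrc1 was at 1454 and 1414 CPM (−0.04), F13a1, the A chain of coagulation factor XIII, at 1268 and 1228 CPM (−0.05), and Cd163 at 304 and 404 CPM, a log2 ratio of 0.41 (0.18 to 0.64). Within the resident-high class Cd163 gave 0.51 (0.28 to 0.74). All 47 UMIs of Cd209f lay in 1 control member.

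Phagocytosis receptors and bridging proteins gave 2 genes higher and 3 lower among 11 tested, with a median of −0.10. Trem2, which binds lipids on dying cells, was at 454 and 315 CPM, a log2 ratio of −0.53 (−0.77 to −0.30), and −0.77 within the resident-high class. The bridging ligand Gas6 was at 311 and 318 CPM. The lysosome list, 18 genes tested, summed to 15743 and 15622 CPM with 4 higher, 3 lower and a median of −0.01. Cathepsin B (Ctsb) was at 2348 and 2207 CPM (−0.09), legumain (Lgmn) at 1703 and 1794 CPM (0.08), and Ctsd at 1230.4 and 1035 CPM (−0.25).

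Lipid genes summed to 20057 and 18632 CPM, most of it Apoe at 18251 and 16884 CPM, a log2 ratio of −0.11 (−0.15 to −0.08). Plin2, which coats lipid droplets, was at 363 and 258 CPM (−0.49), and the fatty acid carrier Fabp5 at 149 and 207 CPM (0.47). Iron and haem genes summed to 19322 and 18623 CPM, with Hmox1 at 1342 and 1240.4 CPM (−0.11) and the ferritin heavy chain gene Fth1 at 7159 and 6768 CPM (−0.08). Of 5 lipid genes tested 1 was higher and 2 were lower, and of 9 iron genes 1 and 1.

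Chemokines and cytokines gave 1 gene higher and 2 lower among 9 tested, with a median of −0.11. Ccl3, the neighbour of Ccl4 on chromosome 11, went the other way from it, at 97.6 and 188 CPM, a log2 ratio of 0.94 (0.57 to 1.31). Ccl12 was at 697 and 491 CPM, −0.50 (−0.69 to −0.32), and Ccl2, the main attractant of monocytes, at 743 and 690 CPM (−0.11). The inflammatory cytokine Tnf gave 44 and 9 UMIs, a log2 ratio of −1.11 below the level at which genes were tested. Of 3 interferon-response genes tested, Bst2 was higher at 717 and 878 CPM (0.29), Ifitm3 at 1000.3 and 1108 CPM (0.15), and Ifi27l2a lower at 1809.9 and 1414 CPM (−0.36). Below that level, Ifit3 (49 and 55 UMIs) had a log2 ratio of 1.27 (0.71 to 1.88), Rsad2 (31 and 31 UMIs) 1.09 (0.36 to 1.89) and Ifit2 (7 and 11 UMIs) 1.60 (0.28 to 3.38). Among barcodes with Xist alone these 3 ratios were −0.81, −1.35 and −0.35. The MHC class II genes, which present antigen, were low in both libraries with 134 and 149 CPM in all and 0 of 7 genes at the level tested.

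Of the BMP and TGFβ list, 3 genes reached the level tested, with 0 higher and 1 lower by their intervals. The lower gene was Id2, an inhibitor of transcription factors, at 177 and 137 CPM, a log2 ratio of −0.37 (−0.74 to −0.01). The others were Tgfb1 at 170 CPM in either library (0.00) and Nrros, which holds TGFβ1 on the surface of macrophages, at 173 and 164 CPM. Id3, a target of BMP signalling, was at 111 and 62.0 CPM, below the level tested (−0.83). Bmp2 gave 37 UMIs in control and 2 in mutant members. Of 3 growth factor genes tested, 0 were higher and 0 lower. Grn, which encodes progranulin, was at 1015 and 1026 CPM (0.02), and Igf1, a growth factor that macrophages supply, was at 127 and 148 CPM (0.21). Of the glycolysis genes, 2 were higher and 1 lower among 7 tested, with a median of 0.17.

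Genes that dissociation is known to induce summed to 5788 and 5209.9 CPM. Of the 13 tested, 1 was higher and 5 lower by their intervals, with Jun at 914 and 709 CPM (−0.36), Ier2 at 425 and 289 CPM (−0.55) and Fos at 754 and 763 CPM (0.02). By class, the list gave 6041 and 6052 CPM in resident-high members, a log2 ratio of 0.003 (−0.06 to 0.06), and 5354 and 2059 CPM in resident-low members, −1.38 (−1.61 to −1.15). In resident-low members 10 of 13 tested genes were lower by their intervals and 0 higher, 9 of them at least 2-fold, such as Fos (75 and 15 UMIs, −1.90), Jun (99 and 15 UMIs, −2.30) and Egr1 (68 and 9 UMIs, −2.49). Over all 1395 genes tested in this class, 4.23% were at least 2-fold lower with an interval apart from 0 and 3.37% higher. The share by intervals alone is not given for the class. Its sums come from 15 control and 12 mutant members, and 1 control member held 31608 of the 134290 control UMIs of the class. The part of the dissociation response in the other differences was not tested.

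Genes of G2 and mitosis gave 5 of 5 tested genes higher in the mutant by their intervals, with a median log2 ratio of 0.58 against 0.01 over all genes. The list summed to 975 and 1579 CPM, a log2 ratio of 0.70 (0.58 to 0.82). Birc5, which encodes the chromosomal passenger protein survivin, was at 141 and 280 CPM, 0.98 (0.68 to 1.29), the centromere histone Cenpa at 130 and 235 CPM (0.86), and topoisomerase IIα (Top2a) at 112 and 169 CPM (0.58). The S phase list summed to 799 and 786 CPM, with Pcna at 170 and 159 CPM (−0.10).

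By the share of members with such transcripts, the libraries were within counting error of each other. At least 2 UMIs of the G2 and mitosis list were found in 110 of 166 control members (66.3%) and 40 of 62 mutant members (64.5%). After thinning to 1000 UMIs the shares were 27.0% (41 of 152, 20.1 to 34.8) and 27.1% (16 of 59, 16.4 to 40.3). Progenitor-gene barcodes thinned in the same way gave 37.2% in both libraries, endothelial-gene barcodes 17.8% and 15.8%, and neuron-gene barcodes 5.85% and 4.41%. Members with at least 10 such UMIs numbered 27 (16.3%) in the control and 17 (27.4%) in the mutant, where members were also deeper. Retinal progenitor transcripts in members were higher in the mutant as well, as given next, and their part in the list's difference was not tested.

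**Figure D4:**
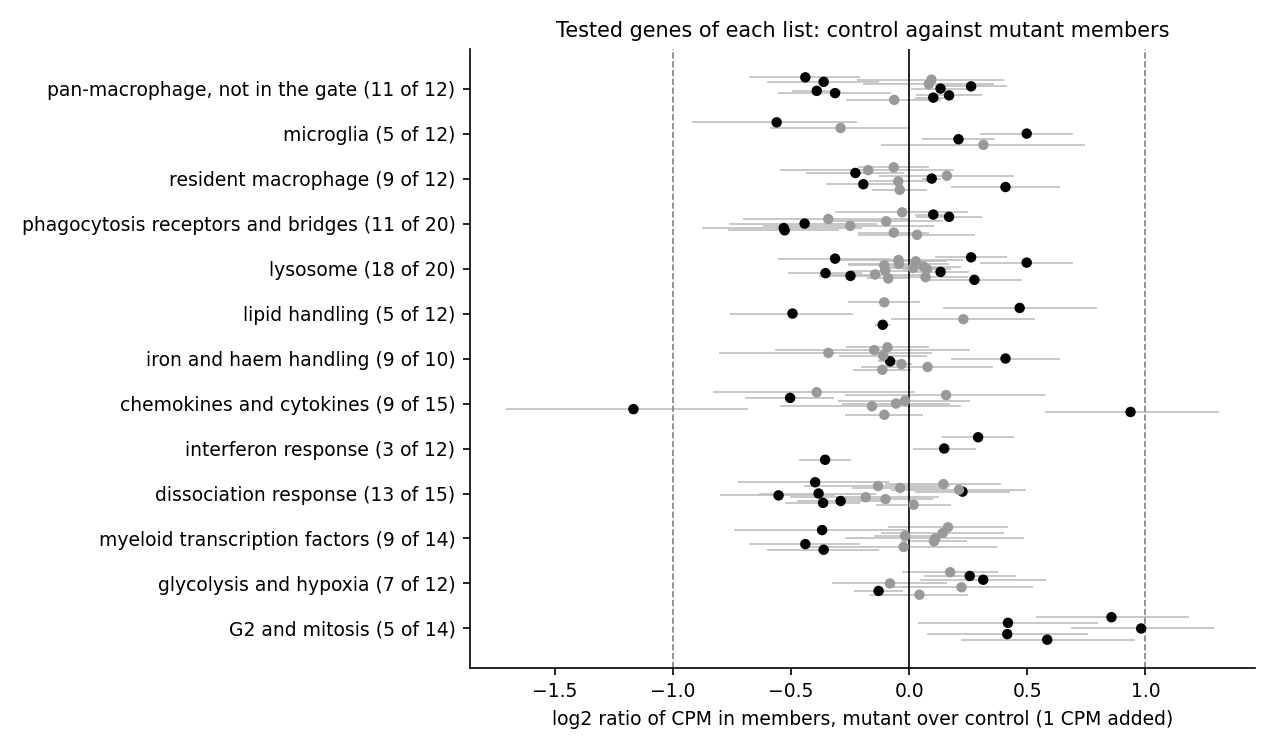
Each point is a tested gene of the list named on its row, placed by its log2 ratio of mutant over control members, with its 95% counting interval as a line. Genes whose interval lies apart from 0 are black and the dashed lines mark 2-fold. Ccl4, at −1.17, is the gene of these lists beyond the dashed lines, and the 5 points of G2 and mitosis lie to the right of 0.

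Transcripts of neighbouring cells were found in the members and differed by library. Fibroblast genes summed to 1144 CPM in control and 151 CPM in mutant members, with a UMI in 165 of 166 and 37 of 62 of them. Lens genes summed to 432 and 153 CPM, with 60 UMIs of the crystallin Cryaa in control and 0 in mutant members. Crybb1, counted among the microglia genes above, is in the lens list too and gave 294 of the 594 control and 91 of the 96 mutant UMIs of that list. In the other barcodes Cryaa was at 129 and 0.146 CPM, so the members and the other barcodes differed in the same direction. Retinal progenitor genes were the other way round, at 355 and 588 CPM, and neuron genes at 219 and 324 CPM. The part of these transcripts in the ratios of Col1a1 (569 and 39 UMIs), Col1a2 (573 and 34 UMIs), Fabp7 (155 and 188 UMIs) and Hes5 (132 and 136 UMIs) was not tested.

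Single barcodes carried some of these sums. The pigment cell list stood at 648 CPM in control and 23.9 CPM in mutant members, and 764 of its 890 control UMIs lay in 1 member. Without that member and its mutant counterpart the sums were 93.8 and 19.4 CPM. The red cell list stood at 115 and 529.6 CPM, and 275 of 333 mutant UMIs lay in 1 member, without which the mutant sum was 94.0 CPM. Among the genes called above, this covers Pmel, with 318 of its 378 control UMIs in 1 member, and Hbb-bs, with 142 of its 172 mutant UMIs in 1 member. Nnat was similar, with 62 of its 109 mutant UMIs in 1 member.

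**Figure D5:**
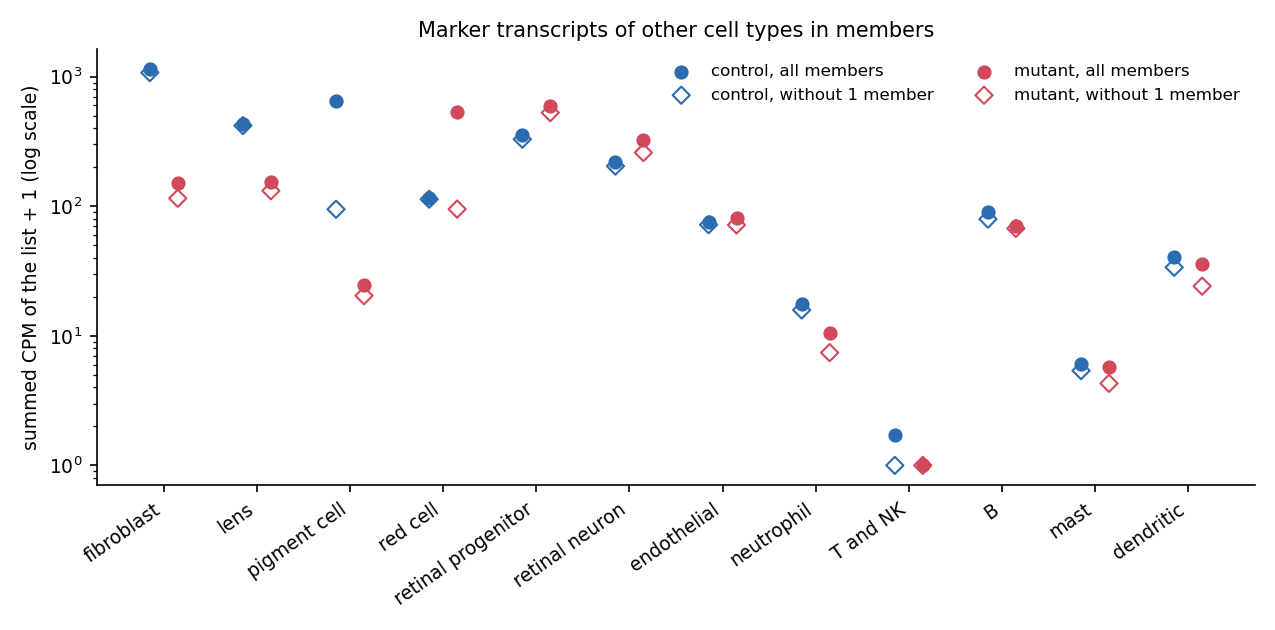
Filled points give the summed CPM plus 1, on a log scale, of each list of genes of other cell types in all members, control in blue and mutant in red, and open diamonds the same without the member that held most of the list. Fibroblast genes stand at 1144 and 151 CPM and retinal progenitor genes at 355 and 588 CPM, and the red cell sum of the mutant drops to 94.0 CPM without 1 member.

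The gene comparison was repeated within the resident-high class, where 8 of 1428 genes were higher and 5 lower. Rgs1 (log2 ratio 1.30) and Wfdc17 were among the 8, Birc5 joined them, and Ccl4, at −1.77 (−2.81 to −0.94), lay below the level tested there. For Wfdc17, 70 of the 99 mutant UMIs of the class lay in 1 member. The other genes higher there were Xist, Hbb-bs, Hes5, Ncam1 and H1fx, and the 5 lower were Col1a1, Col1a2, Pmel, Ptgds and Ttr. In the resident-low class, with 15 and 12 members, 47 of 1395 genes were higher (3.37%) and 59 lower (4.23%). The 9 dissociation genes given above were among the lower, and so were Lyz2, S100a4, S100a6, Itgam, Col1a1 and Col1a2. Retinal genes were among the higher, such as Otx2, Rax, Neurod1, Rorb, Hes6 and Fabp7. At least 10 retinal UMIs were held by 2 of the 15 control and 3 of the 12 mutant members of the class. The monocyte genes Ccr2 (17 and 0 UMIs) and Plac8 (12 and 1 UMIs), which are not among the calls, were also lower in mutant resident-low members. The part of monocytes, and of transcripts from other cells, in these calls was not tested. The sums of this class rest on few cells. Spp1, or osteopontin, was at 14.9 and 358 CPM there, and over all members 34 of its 46 mutant UMIs lay in 1 barcode. Of the genes with at least 100 CPM that were also at least 2-fold above the other barcodes in both libraries, 406 in all, 2 were higher (Rgs1 and Wfdc17) and 1 was lower (Ccl4).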

How the data were processed

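Single-cell 3′ libraries (10x Genomics) of P0 eye cups were analysed, 1 per genotype. The authors counted UMIs with Cell Ranger 7.1.0 against mm10, per the labels, and the deposited matrices hold these raw counts for called barcodes. The matrix headers name software version 3.1.0, and the annotation is not given in the sources used here. No other column was present (0 columns of other samples).

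Barcodes with at least 200 genes and at most 15% mitochondrial UMIs were kept, the limits that the authors also used. Their upper limit of 2000 UMIs would have removed 80.9% of control and 93.3% of mutant kept barcodes and served as an alternative. Scrublet (scanpy 1.11.5, 0.8% expected per 1000 cells) marked 1597 control and 1157 mutant barcodes, 6 and 7 of them members, and these were kept.

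UMIs of members were summed per library into CPM. Ratios carry exact conditional 95% intervals (counting error only) and shares Clopper-Pearson intervals, with scipy 1.17.1. A count of 0 was given a limit of 3 counts. Other settings included TMM factors from edgeR 4.0.16 in R 4.3.3. The members and lists were chosen with earlier results of these data known. Genes were named if they belong to the rule for members, were among the 4 highest of a list or changed 2-fold in it, or were among the 10 highest or lowest ratios. Other genes in the text were chosen after their values were seen. Gene positions are from GENCODE M21 (GRCm38). Some genes of the lists are not reported here.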

Additional observations from a re-analysis of the deposited data

How the results depend on the processing

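No paired analysis was possible because each genotype has 1 library, and for the same reason no replicate could be left out. The settings by sex-linked UMIs, by few C1q or many retinal UMIs, without the highest barcode, at 25 C1q UMIs and the class limits were added after the data were seen. The log2 ratio of the member share was below 0 in every setting run, and was −2.30 with Xist alone and −0.69 with Y-linked UMIs alone. For resident-high members it was −2.82 and −0.70 in these settings and −0.77 at 25 C1q UMIs. Per endothelial-gene barcode it was −1.62 with at most 2000 UMIs per barcode and 0.025 with Xist alone, and per mesenchyme-gene barcode 0.79 with at most 2000 UMIs, 0.42 with Xist alone and −0.73 with Y-linked UMIs alone.

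The counts of genes 2-fold higher and lower (8 and 5) were 124 and 25 with at most 2000 UMIs, 35 and 23 after thinning, 29 and 17 with Xist alone, 62 and 39 with Y-linked UMIs alone, 18 and 14 at a mean of 50 CPM, 243 and 236 with no filter, and 2 and 1 among genes 2-fold over the rest. The higher count was 20 with the endothelial and Col3a1 conditions dropped, 5 without Scrublet doublets, 4 without members of few C1q or many retinal UMIs and 3 without the highest barcode. The lower count was 3 at 5% mitochondrial UMIs, 16 by mean CPM over members and 8 with haemoglobin, mitochondrial and ribosomal UMIs left out of the total. The microglia list (0.13) was 1.12 with at most 2000 UMIs, 0.37 with conditions dropped, 0.45 after thinning, 0.58 with Xist alone, 0.37 by mean CPM over members, and −0.061 without doublets. The resident macrophage list CPM in members (log2 ratio 0.05) was 1.45 with at most 2000 UMIs, 0.17 without doublets, 0.012 with at least 2 immune genes, 0.18 with Xist alone, 0.23 without members of few C1q or many retinal UMIs and 0.22 by mean CPM. It was below 0 with conditions dropped (−0.053), after thinning (−0.012), with Y-linked UMIs alone (−0.20) and with TMM factors (−0.013).

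Among the 18 named genes that were 2-fold apart, signs turned with at most 2000 UMIs, which leaves 43 and 6 members, for Ccnb1 (−6.19), Cenpf (−5.78), Rgs1 (−4.25), Spp1 (−6.77), Tpx2 (−6.77) and Wfdc17 (−5.78). They turned after thinning for Ccl4 (0.11), Ccnb1 (−5.04), Gpnmb (4.26), Ifit2 (−4.09), Spp1 (−0.13) and Tpx2 (−0.38), and with conditions dropped for Col3a1 (0.77) and Mmp14 (0.54). They turned with Xist alone for Ifit2 (−0.35), Ifit3 (−0.81) and Rsad2 (−1.35), with Y-linked UMIs alone for Cxcl10 (−2.55), Mmp14 (0.48), Spp1 (−2.33) and Wfdc17 (−0.66), and without the highest barcode for Cxcl10 (−0.29) and Wfdc17 (−0.36). Of 68 named genes with intervals apart from 0, 22 kept their sign in all 17 settings, and the others, not listed singly, turned or had a log2 ratio of 0 in at least 1. Of the 18, 1 kept its sign throughout. The cause was not tested in any of these.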
